A study of Mus musculus with 20 samples.

Results

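The array held 16593 genes with a symbol (23978 probes). Described here are 61 of these genes, most of which encode chromatin-modifying or chromatin-remodelling proteins, read by 99 probes. They were chosen by gene name: histone deacetylases (*Hdac*), lysine acetyltransferases (*Kat*), lysine demethylases (*Kdm*, without *Kdm5c*, *Kdm5d* and *Kdm7a*), *Smarc* and *Arid* genes, *Rbbp* and *Sin3* genes, and the DNA methyltransferases *Dnmt1*, *Dnmt3a* and *Dnmt3b*. The family was taken up because *Kat2b*, *Rbbp7* and *Arid4b* were higher in *Adck2*+/− muscle, so these 3 genes were selected on the muscle comparison and that comparison is given here as a description. The study asked how loss of 1 copy of *Adck2*, which encodes a mitochondrial kinase-like protein needed for coenzyme Q synthesis, changes RNA levels in skeletal muscle and liver. Total RNA was hybridised to 20 Illumina bead arrays in 4 groups of 5: *Adck2*+/− muscle, wild-type (WT) muscle, *Adck2*+/− liver and WT liver. All mice were of the B6N strain, per the methods males, and received no treatment. The muscle is labelled as gastrocnemius. The labels give an age of 3 years and the methods 6 months, and the methods name another maker of arrays than the probe names do. The heterozygous line came from knock-out embryonic stem cell clones and lacks the copy in every tissue. *Adck2* itself had 1 probe, detected on 3 of 10 arrays in each tissue, which could not check the genotypes.

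Values are log2 signals after background correction and quantile normalization within a tissue, in arbitrary units. A probe was detected on an array when its deposited detection p-value was under 0.05, and genes with a probe detected on 5 or more of a tissue's 10 arrays were tested. A gene was called at an adjusted p under 0.05 in the limma fit over all genes of that comparison. The median deposited signal was 131.3 to 189.8 in muscle and 125.8 to 219 in liver, and 11626 to 12604 probes were detected on an array. Muscle arrays detected 12 of 12 muscle fibre markers on all 5 arrays of each genotype, and liver arrays 10 of 12 hepatocyte markers. The first principal component of all tested genes took 45.9% of the variance in liver, where *Adck2*+/− replicates 1 and 4 and WT replicate 3 scored 28.0, 28.3 and 30.5 and no other array scored above 5.87. In muscle it took 35.9%, with *Adck2*+/− replicates 1 to 3 at 17.8 to 27.8, replicates 4 and 5 at −2.31 and −9.62, and WT replicates at 4.76 or lower. Per the methods the RNA came from 5 mice of each genotype, so muscle and liver arrays may share mice, but the labels do not say which. Nothing in the labels ties a replicate number to a litter or day, and the p-values measure the spread between these mice. In whole tissue, fewer cells of a type and less RNA per cell cannot be told apart.

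Chromatin is DNA wound around histone octamers. Acetyltransferases add acetyl groups to histone lysines, which is generally linked to open, transcribed chromatin, and deacetylases remove them. Most deacetylases of class I work inside large corepressor complexes: SIN3 and NuRD both hold HDAC1, HDAC2 and the histone-binding WD40 proteins RBBP4 and RBBP7, and SIN3 also holds ARID4A or ARID4B. Most SMARC proteins are subunits of SWI/SNF and related ATP-driven machines that slide or evict nucleosomes. In skeletal muscle, SMARCD3 (BAF60C) brings SWI/SNF to myogenic genes, and the class IIa enzymes HDAC4, HDAC5 and HDAC7 hold MEF2 factors in check.

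*Kat2b* encodes PCAF, an acetyltransferase of SAGA-type and ATAC coactivator complexes and a partner of MyoD. *Rbbp7* (RbAp46) is the histone-binding subunit named above, shared with Polycomb repressive complex 2. *Arid4b* encodes a DNA-binding subunit of SIN3. The 250 bases before each annotated start of these 3 genes are printed because the genes moved together in muscle, and those of *Smarcd3* because it had the largest difference between tissues. They are RefSeq entries on GRCm38.p6, 5′ to 3′ on the gene's strand, at chr17:53566721-53566970 (+) and chr17:53583876-53584125 (+) for *Kat2b*, chrX:162760122-162760371 (+) for *Rbbp7*, chr13:14063534-14063783 (+) for *Arid4b* and chr5:24602003-24602252 (−) for *Smarcd3*. Capitals mark matches, on either strand, to 5 motifs: the GC box GGGCGG, the ETS core CCGGAA, the CCAAT box CCAAT, the E-box CAGCTG and the TATA box TATAAA.
Kat2b, first start: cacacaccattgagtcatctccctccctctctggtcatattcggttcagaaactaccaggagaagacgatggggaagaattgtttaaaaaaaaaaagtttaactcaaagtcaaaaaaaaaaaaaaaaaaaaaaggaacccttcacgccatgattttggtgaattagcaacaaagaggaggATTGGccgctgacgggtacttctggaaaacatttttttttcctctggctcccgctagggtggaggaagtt
Kat2b, second start: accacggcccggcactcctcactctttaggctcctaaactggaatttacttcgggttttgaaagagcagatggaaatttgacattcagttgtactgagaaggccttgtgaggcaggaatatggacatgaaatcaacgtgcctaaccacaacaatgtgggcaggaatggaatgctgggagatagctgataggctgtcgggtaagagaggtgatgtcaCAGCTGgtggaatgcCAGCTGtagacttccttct
Rbbp7: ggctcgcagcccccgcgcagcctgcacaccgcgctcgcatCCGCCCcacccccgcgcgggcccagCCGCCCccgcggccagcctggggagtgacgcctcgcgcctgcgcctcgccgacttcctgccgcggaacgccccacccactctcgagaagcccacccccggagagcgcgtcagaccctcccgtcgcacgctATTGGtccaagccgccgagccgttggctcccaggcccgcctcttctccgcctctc
Arid4b: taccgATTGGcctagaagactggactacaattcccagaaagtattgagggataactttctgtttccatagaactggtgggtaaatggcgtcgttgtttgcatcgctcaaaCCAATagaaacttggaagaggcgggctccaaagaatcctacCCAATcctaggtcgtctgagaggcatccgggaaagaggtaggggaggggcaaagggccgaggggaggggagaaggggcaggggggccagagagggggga
Smarcd3: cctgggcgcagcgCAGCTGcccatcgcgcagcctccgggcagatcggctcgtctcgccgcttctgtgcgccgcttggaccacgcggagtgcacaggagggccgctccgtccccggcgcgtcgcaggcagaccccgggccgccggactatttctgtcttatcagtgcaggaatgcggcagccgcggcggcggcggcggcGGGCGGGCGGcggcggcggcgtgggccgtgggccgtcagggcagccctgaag

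The CCAAT box was present once before the first *Kat2b* start and before *Rbbp7*, and 3 times before *Arid4b*. It lay in 33.8% of 32851 windows of this length over all genes. The second *Kat2b* start held 2 E-boxes and *Smarcd3* held 1, against 13% of all windows. *Rbbp7* and *Smarcd3* each held 2 GC boxes, the pair of *Smarcd3* overlapping by 2 bases, against 32.7% of all windows. Their windows had 76.4% and 76% G and C, against 40.8% and 48.4% before the *Kat2b* starts and 54% before *Arid4b*. No ETS core or TATA match stood in the 5 windows, and these lay in 12% and 12.4% of all windows. Of the genes of the family, 51 had an entry. Over the 73 family entries used, 44 held a GC box (60.3%) and 28 a CCAAT box (38.4%). Any entries on 1 chromosome were left out of these 73, but not out of the 51 genes or of the windows over all genes. A match is a run of letters and not a measured site.

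Of the 61 genes, 49 were tested in muscle and 50 in liver, 47 of them in both with the same probe. Detection set *Smarca1*, an ISWI-type ATPase, apart: its probe was detected on 10 of 10 muscle arrays and on 0 of 10 liver arrays. *Arid5b*, a DNA-binding partner of a histone demethylase, showed the opposite, 0 of 10 muscle arrays and 10 of 10 liver arrays. *Kdm2b* was tested only in muscle (6 and 1 arrays in muscle and liver), and *Hdac8* (2 and 6) and *Sin3b* (3 and 6) only in liver. *Arid1a*, *Arid3c*, *Arid5a*, *Dnmt3a*, *Hdac9*, *Kdm4a*, *Kdm4d*, *Rbbp8nl* and *Smarcd1* passed in neither tissue. The highest of these was *Arid1a*, detected on 4 muscle arrays and 1 liver array, so no level is given for them. No gene passed through 1 genotype only. *Rbbp4*, the closest relative of *Rbbp7*, had no named probe and was not analysed here.

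In *Adck2*+/− muscle, 3 of the 49 tested genes were called higher and none lower, and these are the 3 genes that prompted the choice. Over all 8424 genes tested in muscle, 1.89% were called in either direction and 1.23% were called higher. Because this contrast selected the genes, nothing is read from the count. The calls depended on single arrays: when each of the 10 was left out in turn, *Rbbp7* was not called in 4 cases and *Arid4b* in 1, and the count over all genes, 159, lay between 14 and 703. No tested gene was called in limma with the replicate number as a block (1756 at an unadjusted p under 0.05) or by the methods' t-test after Benjamini-Hochberg adjustment (1413 unadjusted). *Kat2b* measured 8.74, 8.91, 9.08, 8.97 and 8.93 in *Adck2*+/− muscle, against 8.01, 8.30, 7.65, 8.05 and 8.14 in WT muscle. Every *Adck2*+/− array lay above every WT array. The difference was 0.90 ± 0.13 (log2, SE, n = 5 per genotype), or 1.86-fold. A further kept *Kat2b* probe differed by 0.79, and the remaining one was detected on none of the muscle arrays.

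*Rbbp7* measured 10.16, 10.42, 10.59, 10.40 and 10.12 in *Adck2*+/− muscle, against 9.22, 9.38, 8.04, 9.60 and 8.90 in WT muscle. The groups did not overlap, and the WT arrays spread more widely, with an SD of 0.195 in *Adck2*+/− and 0.607 in WT muscle. The difference was 1.31 ± 0.25, or 2.48-fold. Among its other 3 probes, those with differences of 1.27 and 1.31 followed this pattern, and the remaining one differed by 0.21 with overlapping groups. The IDs of the *Kat2b* and *Rbbp7* probes were exchanged among themselves between the 2 deposited tables, so which probe gave which value is not known, while the gene's values are the same in both. *Arid4b* measured 6.73, 6.68, 6.66, 6.30 and 6.68 in *Adck2*+/− muscle, against 5.86, 5.94, 5.48, 5.91 and 5.40 in WT muscle. These groups did not overlap either, and the difference was 0.89 ± 0.14, or 1.85-fold. It rests on a single probe of low signal, with a mean of 6.16 over the muscle arrays. The other *Arid4b* probe was detected on none of them and had a mean of 4.85.

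**Figure D1:**
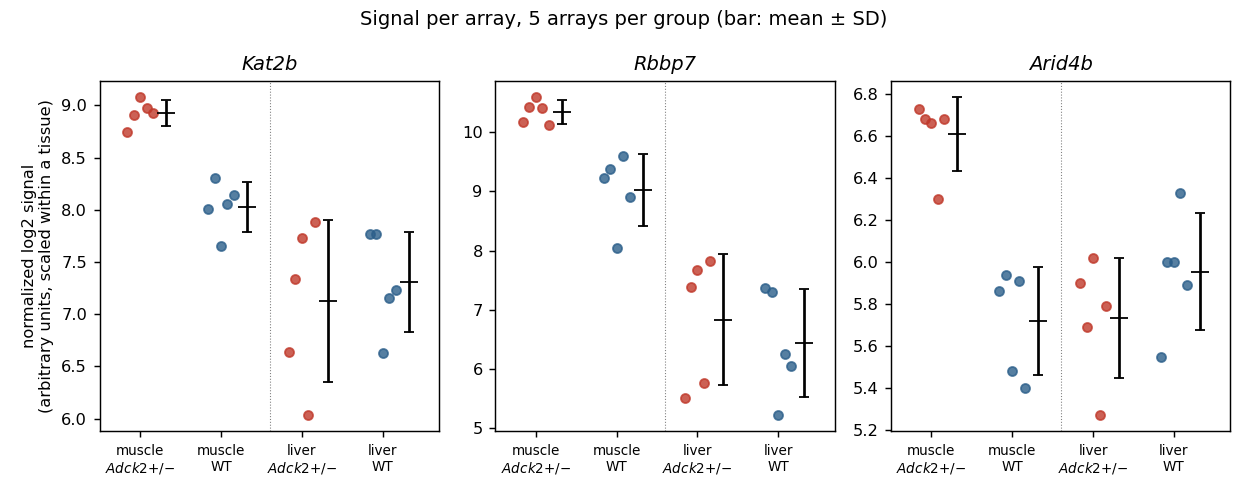
Normalized log2 signal (vertical axis, arbitrary units, scaled within a tissue) of *Kat2b*, *Rbbp7* and *Arid4b* on each of the 5 arrays per group, with the mean and SD beside them. In muscle each *Adck2*+/− array (red) lies above each WT array (blue), and in liver the genotypes overlap for all 3 genes.

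The closest relatives were not called. *Kat2a* (GCN5), which takes the place of PCAF in the SAGA complex, differed by −0.32 ± 0.16 in muscle, and *Arid4a* by −0.22 ± 0.19. *Arid4a* measured 5.66, 5.47, 5.07, 5.18 and 5.13 in *Adck2*+/− muscle, against 5.22, 5.82, 5.78, 4.94 and 5.83 in WT muscle, with wide overlap. Its probe was detected on 2 of 5 *Adck2*+/− and 4 of 5 WT muscle arrays. The next gene of the family after the 3 was *Kat5* (TIP60), the acetyltransferase of the NuA4 complex, at an adjusted p of 0.0551 where the highest of the 3, *Rbbp7*, had 0.0297. *Kat5* measured 8.04, 8.0, 7.98, 7.84 and 7.98 in *Adck2*+/− muscle, against 7.48, 7.74, 7.60, 7.47 and 7.57 in WT muscle. All *Adck2*+/− values again lay above the WT values, and the difference was 0.40 ± 0.09. With each probe tested by itself *Kat5* was called, at an adjusted p of 0.0366 (limma). With each of the 10 arrays left out in turn its adjusted p was 0.039 to 0.127 (limma), and it was called in 1 case. *Hdac5* and *Smarcc2* were the genes with all *Adck2*+/− values below all WT values, so that 6 of the 49 genes had groups that did not overlap, where this held for 6.23% of all genes. Of these 6, 3 were the genes that prompted the choice on this comparison, so nothing is read from the count.

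Of the SIN3 and NuRD genes in the family, *Rbbp7* and *Arid4b* were called and no other. *Hdac1* and *Hdac2*, the catalytic pair of SIN3 and NuRD, differed by −0.02 ± 0.08 and 0.08 ± 0.11 in muscle, and *Sin3a*, the scaffold, by −0.13 ± 0.14. The class IIa enzymes lay below 0, *Hdac5* at −0.40 ± 0.13, *Hdac4* at −0.37 ± 0.22 and *Hdac7* at −0.29 ± 0.15. *Hdac5* measured 10.33, 9.90, 10.29, 10.46 and 10.56 in *Adck2*+/− muscle, against 10.95, 10.65, 10.65, 10.62 and 10.66 in WT muscle. A second kept *Hdac5* probe differed by −0.51 and the remaining one by 0.24. *Hdac11*, the single class IV enzyme, was at −0.46 ± 0.21. Among the other *Rbbp* genes, named for binding the retinoblastoma protein, *Rbbp6* was at 0.26 ± 0.13, *Rbbp5* at 0.23 ± 0.14 and *Rbbp9* at 0.16 ± 0.12. *Rbbp5* belongs to the histone H3 lysine methyltransferase complexes, and *Rbbp6* encodes a ubiquitin ligase.

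Of the 11 tested *Smarc* genes, 8 lay below 0 in muscle, *Smarca2* among them only beyond the decimals shown. Their median was −0.19, against −0.01 over all genes tested, of which 4401 of 8424 lay below 0. None was called. *Smarcc2* (BAF170), a core scaffold of SWI/SNF, measured 8.18, 7.70, 8.0, 7.85 and 8.13 in *Adck2*+/− muscle, against 8.59, 8.24, 9.14, 8.18 and 8.69 in WT muscle, a difference of −0.60 ± 0.18. The values of 8.18 in either genotype differ only beyond the decimals shown. *Smarca4* (BRG1), 1 of its alternative ATPases, measured 6.94, 6.61, 6.80, 6.37 and 6.25 in *Adck2*+/− muscle, against 7.01, 7.04, 7.36, 7.51 and 6.70 in WT muscle. Its difference was −0.53 ± 0.18, and 3 *Adck2*+/− arrays lay below the lowest WT array. For the other ATPase, *Smarca2* (BRM), the main probe differed by 0.00 ± 0.13, and a second one by 0.32. *Smarcb1* (SNF5), a core subunit, was at −0.35 ± 0.12, and *Smarcd2* (BAF60B) at 0.23 ± 0.15 was the highest of the *Smarc* genes. The 10 tested demethylases all lay between −0.06 and 0.21, and *Dnmt1* and *Dnmt3b* both at 0.07.

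Over the 49 genes, 25 lay above 0 and 24 below, with a median of 0.02. An unadjusted p under 0.05 was reached by 9 of the 49, where 22.3% of all genes reached it. For 10 of the 15 genes with several kept probes in muscle the probes differed in sign. The largest gaps were in *Hdac5*, given above, *Kdm8* (0.11 and −0.43) and *Rbbp5* (0.23 and −0.30), and the others were *Kat6b*, *Kdm3a*, *Kdm4b*, *Kdm6a*, *Kdm6b*, *Smarca2* and *Smarcc1*. Marker levels varied between single muscle arrays: against its mean over the 10 arrays (log2), the mean of 8 kept hepatocyte markers deviated by −1.91 to 3.25 in *Adck2*+/− and by −1.88 to 1.53 in WT muscle, and that of 4 kept adipocyte markers by −1.06 to 2.01 in *Adck2*+/− and by −1.86 to 0.94 in WT muscle. On all 5 arrays, 4 of 12 hepatocyte markers were detected in *Adck2*+/− muscle and 5 in WT muscle, and their summed deposited signal was 2330 to 14100 in *Adck2*+/− and 2220 to 10200 in WT muscle. The mean of 12 muscle fibre markers deviated by −0.09 to 0.12 in *Adck2*+/− and by −0.14 to 0.06 in WT muscle. The part of these markers in the differences was not tested.

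**Figure D2:**
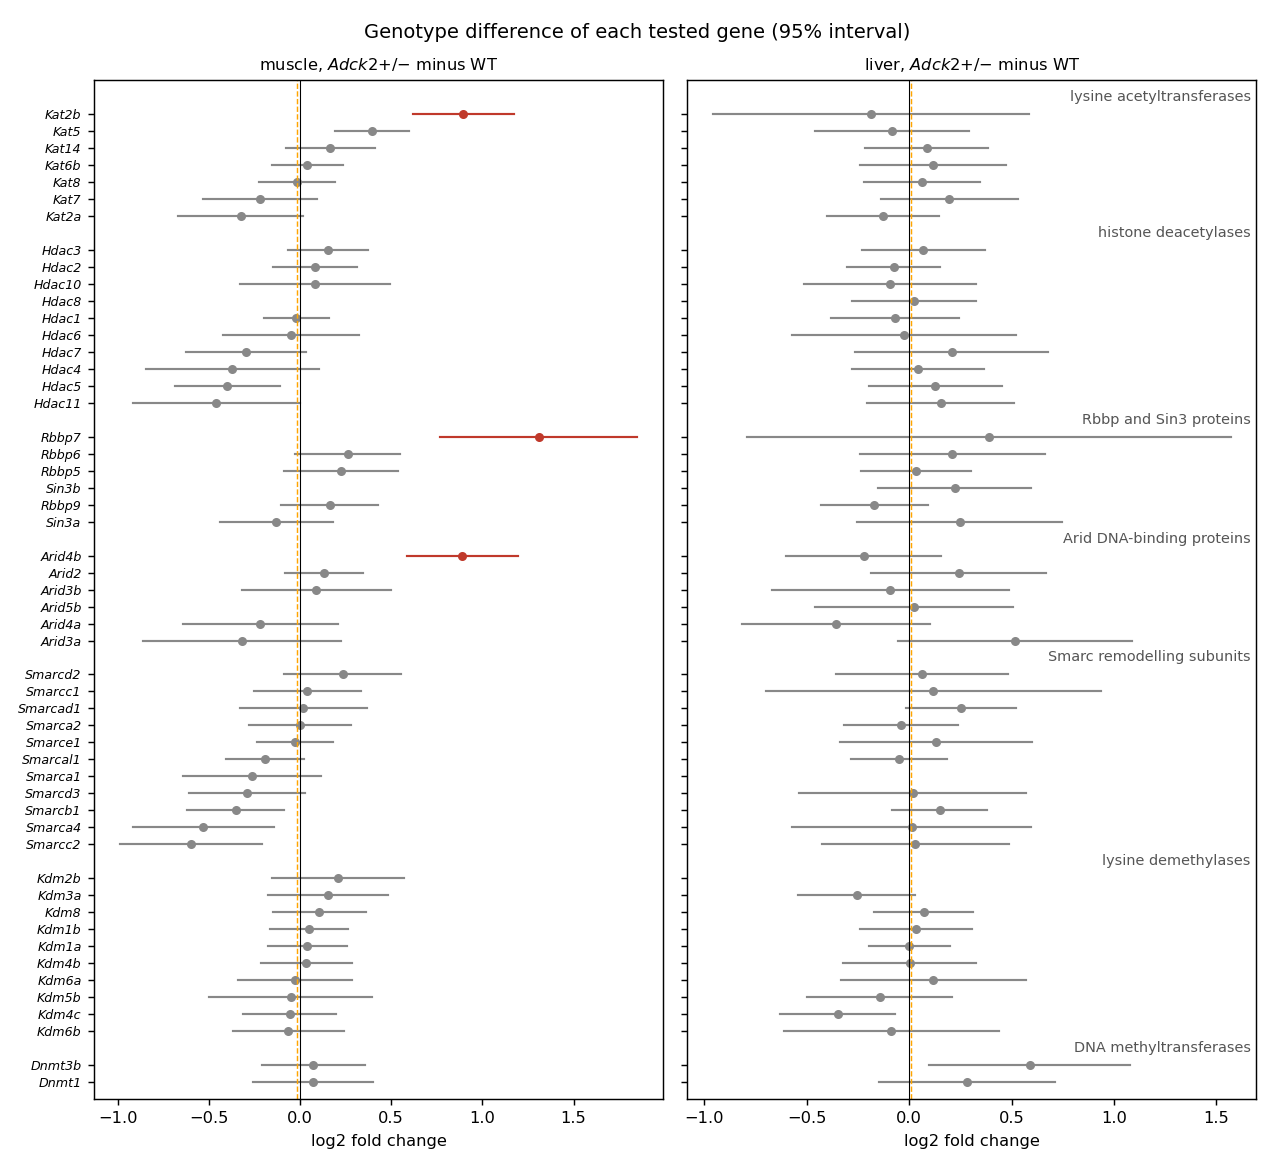
Log2 fold change between genotypes (horizontal axis, *Adck2*+/− minus WT) with its 95% interval for each gene tested in muscle (left) and liver (right), by role. Red marks genes called higher and grey those not called, and the dashed line is the median of all genes. In muscle *Rbbp7*, *Kat2b* and *Arid4b* are called, and in liver no gene is.

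Liver did not take part in choosing the family, apart from *Dnmt3b*, which the study itself singled out there. None of the 50 tested genes was called in *Adck2*+/− liver, where limma called 1 gene of 8484 (0.0118%), which was higher. An unadjusted p under 0.05 was reached by 2 of the 50, *Dnmt3b* and *Kdm4c*, against 7.04% of all genes. None had groups that did not overlap, against 1.8% of all genes. The median over the 50 was 0.03, with 33 above 0. Over all 8484 genes the median was 0.01, with 4477 above 0.

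*Dnmt3b*, a de novo DNA methyltransferase, measured 9.89, 9.93, 9.45, 9.97 and 9.28 in *Adck2*+/− liver, against 9.31, 9.37, 8.65, 9.63 and 8.63 in WT liver. The 3 highest values were *Adck2*+/− and the 2 lowest WT, with overlap between. The difference was 0.59 ± 0.22 (unadjusted p = 0.0227, adjusted p = 0.598, limma), which failed the correction. Since the study picked the gene on these arrays, this is not independent evidence of its direction. *Kdm4c*, a demethylase of histone H3 lysine residues, measured 6.78, 7.20, 6.86, 6.86 and 7.16 in *Adck2*+/− liver, against 7.26, 7.15, 7.49, 7.52 and 7.19 in WT liver. Its difference of −0.35 ± 0.13 had an adjusted p of 0.598 (limma). Leaving aside *Rbbp7*, *Arid4b* and *Kat2b*, which follow in the next paragraph, the further genes at the ends of the order were *Arid3a* at 0.52 ± 0.26 and *Dnmt1*, the maintenance methyltransferase, at 0.28 ± 0.20, then *Smarcad1* at 0.25 ± 0.12 and *Sin3a* at 0.25 ± 0.23. At the low end stood *Arid4a* at −0.36 ± 0.21, *Kdm3a* at −0.26 ± 0.13 and *Rbbp9* at −0.17 ± 0.12.

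The 3 genes that differed in muscle did not differ detectably in liver. *Kat2b* measured 6.64, 7.34, 7.73, 6.03 and 7.88 in *Adck2*+/− liver, against 7.77, 7.77, 6.63, 7.15 and 7.23 in WT liver, a difference of −0.19 with a 95% interval of −0.96 to 0.58. *Arid4b* measured 5.90, 5.69, 6.02, 5.27 and 5.79 in *Adck2*+/− liver, against 5.55, 6.0, 6.0, 6.33 and 5.89 in WT liver, a difference of −0.22 (interval −0.60 to 0.16). *Rbbp7* measured 5.51, 7.39, 7.67, 5.76 and 7.82 in *Adck2*+/− liver, against 7.37, 7.30, 5.22, 6.26 and 6.06 in WT liver. Its difference of 0.39 on the main probe had a 95% interval of −0.79 to 1.57, which includes the difference seen in muscle. The liver intervals of *Kat2b* and *Arid4b* end below their muscle differences, which are those that selected the genes. In the fit that set the tissues against each other, given below, neither was called. The *Rbbp7* probe was detected on 5 *Adck2*+/− and 4 WT liver arrays, and that of *Arid4b* on 4 and 5. The other 3 liver probes of *Rbbp7* differed by 0.01 ± 0.54, 0.05 ± 0.49 and −0.20 ± 0.17. With *Rbbp7*, *Kat2b*, *Hdac6*, *Kdm4b*, *Kdm6a*, *Kdm8* and *Smarca2* had liver probes of both signs, 7 of the 14 genes with several. Among the relatives, *Kat2a* differed by −0.13 ± 0.13, *Hdac1* by −0.07 ± 0.14, *Hdac2* by −0.07 ± 0.10, *Smarca2* by −0.04 ± 0.13 and *Smarca4* by 0.01 ± 0.27 in liver.

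The liver values of *Rbbp7* spread widely within both genotypes (SD 1.10 in *Adck2*+/− and 0.903 in WT liver). Its lowest values, 5.51, 5.76 and 5.22, were those of *Adck2*+/− replicates 1 and 4 and WT replicate 3, the arrays that stood apart over all genes. *Kat2b* was also lowest on these, at 6.64, 6.03 and 6.63, and so were *Kat5* and *Smarce1*. *Smarce1*, a DNA-binding SWI/SNF subunit, measured 8.51 and 8.63 on the *Adck2*+/− arrays and 8.26 on the WT array, where the others lay between 8.89 and 9.39. *Hdac7* was highest there, at 8.15, 7.89 and 7.99, with no other array above 7.57. *Arid4b* did not follow: it was lowest on *Adck2*+/− replicate 4, at 5.27, but measured 5.90 and 6.0 on the other pair. In all, 4 of the 50 genes were lowest on these 3 arrays, where 11.2% of all genes were, and 13 were highest there, where 16.5% of all genes were. This count was made after the arrays were seen. Without the 3 arrays none of the 48 genes still tested was called, and the difference was 0.89 for *Rbbp7*, 0.17 for *Kat2b*, −0.11 for *Arid4b*, 0.32 for *Dnmt3b* and −0.20 for *Kdm4c*.

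**Figure D3:**
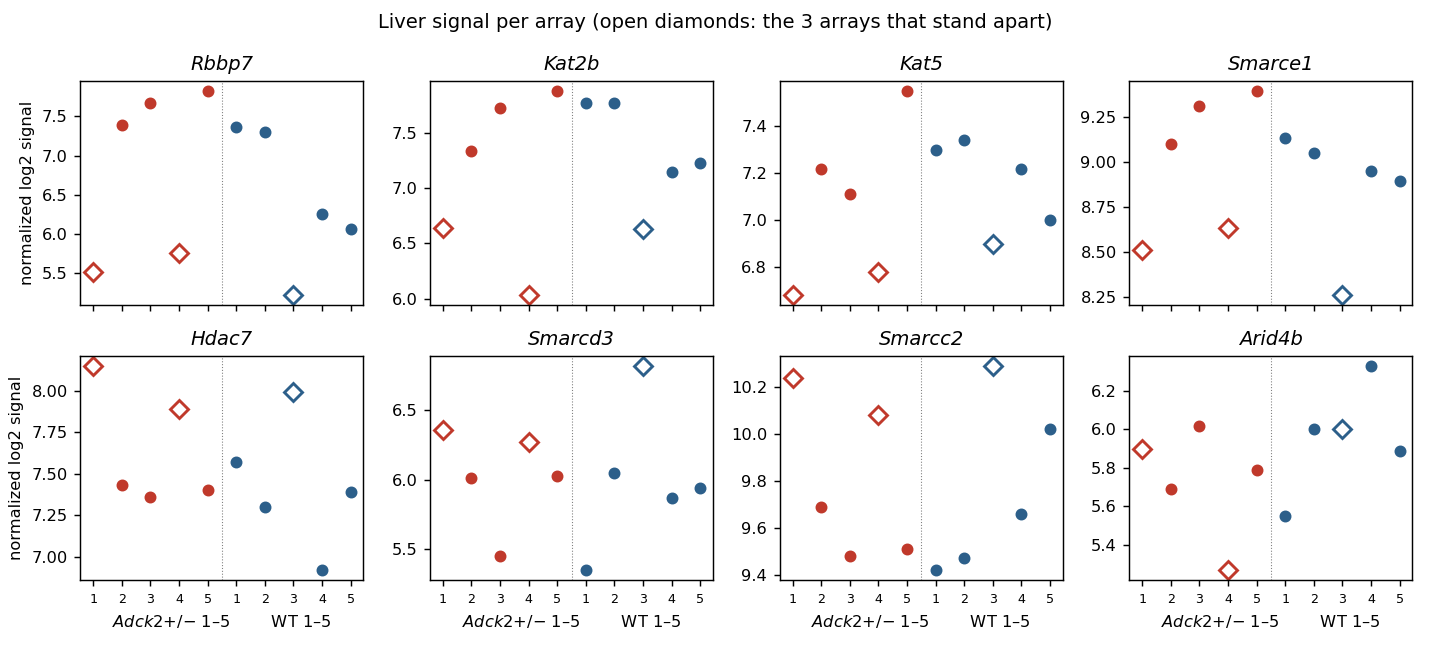
Normalized log2 liver signal (vertical axis, arbitrary units) of 8 genes on each array, *Adck2*+/− 1 to 5 in red and WT 1 to 5 in blue. Open diamonds are the 3 arrays that stood apart over all genes, on which *Rbbp7*, *Kat2b*, *Kat5* and *Smarce1* were lowest and *Hdac7*, *Smarcd3* and *Smarcc2* highest, while *Arid4b* was not.

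A fit over all 20 arrays set the genotype difference in muscle against that in liver. It contains the muscle contrast that selected the genes and is a description for them. The difference of differences was 1.14 ± 0.22 for *Arid4b*, 1.08 ± 0.38 for *Kat2b* and 0.97 ± 0.61 for *Rbbp7*. None of the 47 genes was called, where 0.0409% of 7339 genes were, and *Arid4b* came nearest with an adjusted p of 0.0808 (limma).

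The tissue contrast was not used in choosing the family. Between WT muscle and WT liver, arrays normalized together, 34 of 47 genes were called: 19 were higher in muscle and 15 lower. Among all 7339 genes 75.7% were called, 41% higher and 34.7% lower, so the family's share was close to that of all genes. The largest difference belonged to *Smarcd3*, the muscle SWI/SNF subunit. It measured 11.13, 11.48, 11.78, 11.30 and 11.48 in WT muscle, against 5.30, 5.98, 6.73, 5.81 and 5.87 in WT liver, 5.50 ± 0.21 or 45.2-fold (adjusted p = 1.03e-15, limma). Its probe was detected on 4 of the 5 WT liver arrays. Its paralogue *Smarcd2* ran the other way, at 9.03, 9.24, 9.62, 9.36 and 9.46 in WT muscle, against 11.39, 11.25, 11.51, 11.45 and 11.18 in WT liver, a difference of −2.02 ± 0.17 (adjusted p = 8.01e-10, limma). Both sets were clear of overlap. The remaining paralogue, *Smarcd1*, was detected on 1 muscle array and no liver array.

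The deacetylases split. *Hdac4*, a class IIa enzyme, measured 9.01, 9.70, 10.1, 9.49 and 9.60 in WT muscle, against 7.31, 7.79, 7.72, 7.77 and 7.76 in WT liver, 1.91 ± 0.19 higher. *Hdac11* measured 6.16, 6.37, 6.40, 6.47 and 5.59 in WT muscle, against 8.87, 9.05, 8.16, 8.72 and 8.48 in WT liver, −2.46 ± 0.20. Within the class I pair, *Hdac2* was 1.33 ± 0.10 higher in muscle, while *Hdac1* was lower at −1.02 ± 0.11. *Hdac3*, the enzyme of the NCoR complex, was higher by 0.87 ± 0.12, and *Hdac6*, which acts on tubulin in the cytoplasm, differed by −0.79 ± 0.22. These 6 genes passed, at adjusted p of 0.00282 or lower (limma). *Hdac5*, *Hdac7* and *Hdac10* were not called.

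Of 7 acetyltransferase genes, 5 were higher in WT muscle and none lower, where 41% of all genes were higher and 34.7% lower: *Kat2b* (0.98 ± 0.27), *Kat6b* (0.90 ± 0.13), *Kat5* (0.66 ± 0.14), *Kat14* (0.62 ± 0.12) and *Kat7* (0.61 ± 0.15). *Kat2a* and *Kat8* did not pass, at −0.13 ± 0.15 and 0.21 ± 0.11. *Rbbp7* was 2.82 ± 0.43 higher in WT muscle, or 7.08-fold (adjusted p = 4.8e-06, limma), and *Arid4b* did not differ detectably at −0.10 ± 0.16. Between the *Adck2*+/− groups the same muscle minus liver differences were 3.79 ± 0.43 for *Rbbp7*, 2.06 ± 0.27 for *Kat2b* and 1.04 ± 0.16 for *Arid4b*. These differences, and those in WT, hold the muscle values on which the genes were selected, so they are a description. *Arid3a* (1.43 ± 0.27), *Kdm8* (1.32 ± 0.11), *Smarcal1* (1.24 ± 0.10) and *Rbbp6* (1.00 ± 0.17) followed on the muscle side. On the liver side were *Dnmt3b* (−1.88 ± 0.19), *Rbbp9* (−1.09 ± 0.12), *Smarcc2* (−0.90 ± 0.20) and *Arid3b* (−0.86 ± 0.24). Both of these sets passed, at adjusted p between 1.46e-10 and 0.00258 (limma). Of 9 demethylases, 4 were higher in muscle, 4 lower, and *Kdm4c* did not pass.

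**Figure D4:**
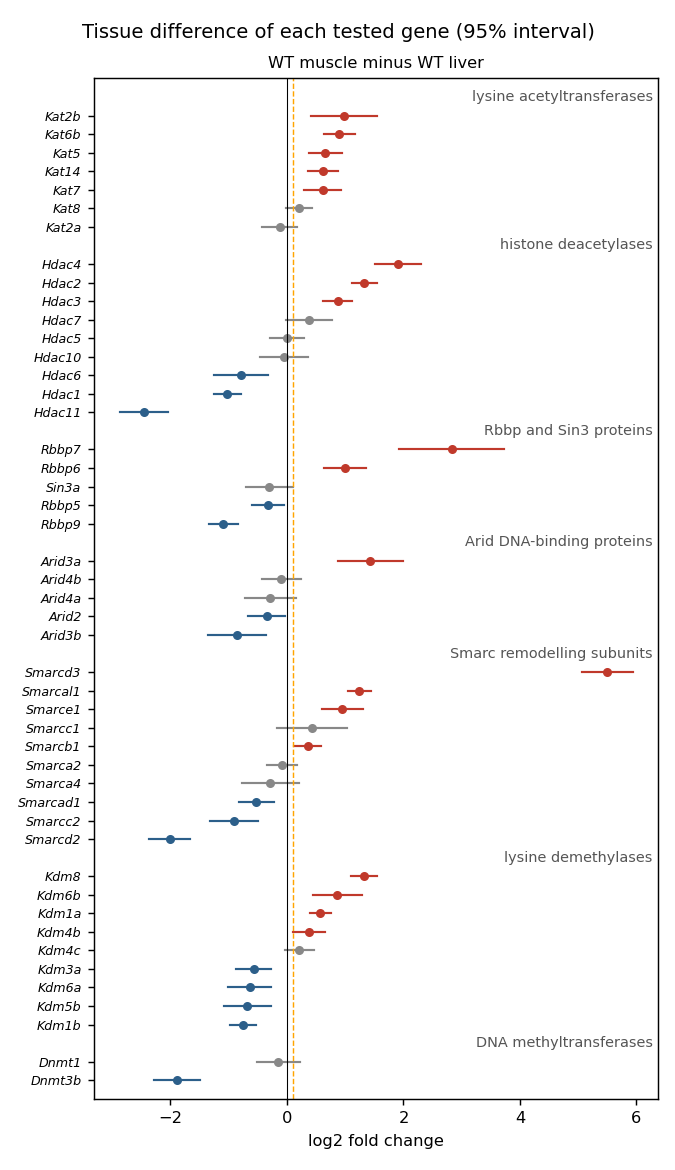
Log2 fold change between WT muscle and WT liver (horizontal axis) with its 95% interval for 47 genes, by role. Red genes were called higher in muscle, blue ones lower and grey ones were not called. *Smarcd3* at 5.50 and *Hdac11* at −2.46 are the ends of the range.

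**Figure D5:**
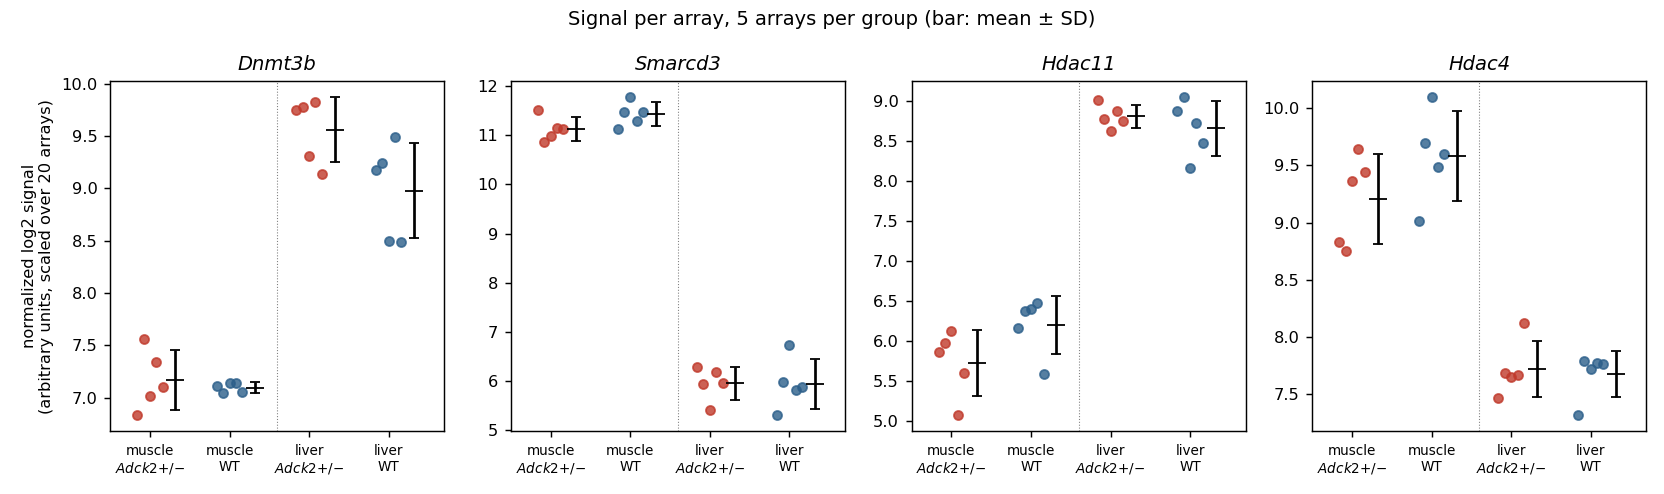
Normalized log2 signal (vertical axis, arbitrary units, scaled over 20 arrays) of *Dnmt3b*, *Smarcd3*, *Hdac11* and *Hdac4* on 5 arrays per group, with the mean and SD. Muscle and liver arrays do not overlap for these genes, and the genotypes overlap within each tissue.

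Partner subunits outside the family were followed through 9 lists. In *Adck2*+/− muscle 4 of their 110 tested genes were called (3.64%), where 1.89% of all genes were. The lists were drawn up with earlier results of these data known, so nothing is read from this share. *Aebp2*, a cofactor of Polycomb repressive complex 2, was higher by 0.88 ± 0.18 and was the 1 call among 7 tested genes of that complex, while *Ezh2*, its methyltransferase, was at 0.29. *Msl3*, a subunit of the male-specific lethal acetyltransferase complex, was higher by 0.76 ± 0.13, 1 of 22 acetyltransferase partners. *Ino80b* was lower at −0.67 ± 0.13, 1 of 11 further remodellers, and *Zbtb38*, a reader of methylated DNA, at −0.97 ± 0.21, 1 of 8 DNA methylation partners. Their adjusted p lay between 0.0198 and 0.0409 (limma). No alternative was followed for these genes by name, and no gene was called in muscle with the replicate block or the methods' t-test after adjustment. None of 15 NuRD and Sin3 partners was called in muscle. Below 0 lay 12 of them, with a median of −0.14, where 4401 of all 8424 genes did, with a median of −0.01. *Chd4* was lowest at −0.39 and *Suds3* highest at 0.14. None was called among 10 SWI/SNF partners (*Actl6b* −0.15 to *Ss18l1* 0.43), 7 NCoR and CoREST partners (*Hmg20b* −0.26 to *Phf21a* 0.27), 24 histone methyltransferases (*Setd5* −0.74 to *Smyd1* 0.43) or 6 sirtuins (*Sirt7* 0.01 to *Sirt1* 0.20). In liver no gene of the 9 lists was called.

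Between WT muscle and WT liver, 69 of 102 partner genes were called (67.6%), where 75.7% of all genes were. The histone methyltransferases gave 11 genes higher in muscle and 9 lower of 22, with *Smyd1*, a histone methyltransferase of striated muscle, at 4.03 and *Setd1a* at −1.09. The acetyltransferase partners gave 11 higher and 2 lower of 22, from *Morf4l1* at 1.46 to *Tada1* at −0.71. The NuRD and Sin3 partners gave 7 higher and 6 lower of 15, with *Cdk2ap1* at 1.39 and *Mta3* at −2.28. Sirtuins gave 1 higher and 2 lower of 5, with *Sirt2* at 0.61 and *Sirt7* at −2.56. The SWI/SNF partners gave 3 higher and 1 lower of 8, the ISWI, CHD and INO80 remodellers 4 higher and 2 lower of 11, and the NCoR and CoREST partners 1 higher and 3 lower of 6. The Polycomb repressive complex 2 genes gave 1 higher and none lower of 5, and the DNA methylation partners 3 higher and 2 lower of 8.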

How the data were processed

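The authors deposited intensity values, the mean signal of each probe before any scaling of arrays to each other. Beside each, per the file headers, stands a detection p-value. Software and background handling before deposit are not given in the sources used here. A second deposited table held the same signals, 2165 of its 25697 probes under another ID, all exchanged within a gene symbol or among unnamed probes. Gene names came from the platform annotation, where 1719 probes had none.

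Signals were corrected from the detection p-values (offset 16), quantile normalized and then put on the log2 scale (neqc, limma 3.58.1, R 4.3.3), within a tissue for genotypes and over 20 arrays for the tissue contrast and the interaction. The kept probe of highest mean stood for its gene. lmFit and eBayes were used without covariates, with Benjamini-Hochberg adjustment over all genes tested. The fit and adjustment of the genotype contrasts were tested on simulated log2 values with known changes. Normalization, probe choice and the fits over 20 arrays were not tested in this way. Figures were drawn in Python 3.11.15 with matplotlib 3.10.9.

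The genes and lists were chosen with earlier results of these data known. Named are *Kat2b*, *Rbbp7*, *Arid4b* and their paralogues, the pairs *Hdac1* and *Hdac2*, *Smarca2* and *Smarca4*, *Dnmt3b*, every called gene, the 6 highest and 6 lowest per genotype contrast, the 8 at either end of the tissue contrast, and called or extreme partners. Further genes were named after their values were seen. The files name no slide or scan. The number of arrays and the spread between mice limit the precision (median SD of a gene 0.239 in muscle and 0.276 in liver). Alternatives were the background correction, scaling, detection filter, probe rule, deposited table, replicate block, array weights, the methods' t-test and leaving out arrays.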

Additional observations from a re-analysis of the deposited data

Results flagged for a closer look

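For 18 of the named genes, 72 groups of 5 arrays were examined for an array far from the others, and 5 had one, where chance alone gives about 1 in 20. The measure is the gap to the nearest array as a share of the group's range. *Arid4b* was lowest on *Adck2*+/− muscle replicate 4, at 6.30 with the nearest array at 6.66 (share 0.83), and this value still lay above every WT muscle array. *Hdac2* was highest on WT muscle replicate 5, at 12.13 against 11.97 (share 0.866). *Hdac5* was highest on WT muscle replicate 1, at 10.95 against 10.66 (share 0.865). *Smarcb1* was lowest on WT muscle replicate 4, at 8.23 against 8.64 (share 0.823), within the *Adck2*+/− values. *Hdac4* was lowest on WT liver replicate 1, at 7.43 against 7.84 (share 0.844).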

How the results depend on the processing

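In muscle 159 genes were called. The count was 310 with median scaling (79 higher and 231 lower, against 104 higher and 55 lower), 70 with no filter on detection, 303 with each probe tested by itself, 315 with the mean of all kept probes, 354 with array weights, and 0 after Benjamini-Hochberg with the methods' t-test (1413 at an unadjusted p under 0.05). Leaving out an array gave 14 (without WT replicate 5) to 703 (without *Adck2*+/− replicate 5), and leaving out *Adck2*+/− 5 and WT 2, chosen after seeing the data because they lay nearest to the other genotype, gave 727 of 8194 genes. The 3 genes of the family became 0 with that t-test (10 unadjusted), 1 to 4 when an array was left out and 5 without both arrays. With each probe tested by itself *Kat5* was called beside the 3. Without WT 5 only *Kat2b* was called. *Rbbp7* was also lost without *Adck2*+/− 2, 3 or 4, its adjusted p being 0.0207 to 0.0828 over the 10 left-out arrays, and *Arid4b* reached 0.0502 without WT 5.

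Same-numbered arrays correlated by −0.148 to 0.233 in muscle and −0.54 to 0.28 in liver, with 1 of 5 pairs over 0.1 in each. The main fits therefore did not take the numbers as pairs, while the methods' t-test and the replicate block did. Between muscle and liver, same-numbered arrays correlated by −0.112 to −0.0182 in *Adck2*+/− mice, where 0 of 5 matched best with their own number, and by −0.0346 to 0.184 in WT mice, where 3 of 5 did. With the replicate block the muscle counts were 0 genes (1756 unadjusted) and 0 of the family (9 unadjusted), and no other count in the family changed.

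In liver 1 gene was called, 3 with median scaling, 2 with array weights, 0 with no filter, with each probe by itself, with the t-test (478 unadjusted) and without the 3 arrays that stood apart (909 unadjusted), and 0 to 2 when an array was left out. The family had 0 calls there under every alternative run. Between WT tissues its 34 calls ranged from 29 to 36. *Arid4b* was at −0.10 between WT tissues and at 1.04 with *Adck2*+/− arrays in place of WT, both with the muscle values on which it was selected. For the difference of differences the 0 calls became 0 to 1 when an array was left out, *Arid4b* being called without *Adck2*+/− muscle replicate 4 or 5 (adjusted p = 0.0421 and 0.0359, limma). Of 1113 alternative values for named genes, 33 changed sign while past the threshold in neither fit. The cause was not tested. With 5 arrays per group and 1 probe for most genes, differences near the spread between mice were not detectable, and genes with no probe detected on 5 arrays of a tissue gave detection counts only.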
